A study of Mus musculus with 5 samples.

Results

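The p53 pathway genes and cyclin-dependent kinase (Cdk) inhibitor genes described here are Trp53, Mdm2, Cdkn1a, Cdkn1b, Cdkn2a, Cdkn2b, Ccng1, Bbc3, Bax, and Sesn1. They were chosen by symbol, and 10 of 10 were present among the 24421 genes of both deposited tables. RNA was sequenced from 5 mouse libraries, 1 for each group, in a study of the glycine decarboxylase gene Gldc in pluripotent cells. MEFs were primary fibroblasts grown from embryos of CF-1 mice in medium with 10% FBS. iPSCs were a reprogrammed pluripotent line, and V6.5 cells were an embryonic stem cell (mESC) line without a hairpin. The NTC library came from V6.5 cells that stably expressed a non-targeting hairpin, and the shGldc library from V6.5 cells that stably expressed a hairpin against Gldc. The iPSCs and all V6.5 cells were grown without feeder cells on gelatin in medium with 15% KSR, 1% FBS, and 1000 U/ml mLIF. MEFs, iPSCs, and V6.5 cells share 1 table, and NTC and shGldc share another. Each pluripotent library came from a single line, and the MEFs differed from these lines in medium as well as in cell type. With 1 library per group, no difference has a replicate check, and no p-value is given.

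p53, encoded by Trp53, is a transcription factor that is held low by the ubiquitin ligase Mdm2 and accumulates after DNA damage and other stress, mainly because the protein is stabilised. It raises transcription of genes that arrest the cell cycle, trigger apoptosis, or limit oxidative stress, and of Mdm2 itself, which closes a negative feedback loop. Cdk inhibitors block the kinases that inactivate the Rb family, the Cip/Kip inhibitors acting on several Cdks and the Ink4 inhibitors on Cdk4 and Cdk6, and the Ink4/Arf locus is a known barrier to reprogramming.

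p53 binds pairs of a 10-base half-site, and matches to this half-site consensus were searched in the RefSeq promoter windows of build GRCm38.p6, which reach from 250 bases before to 50 bases after an annotated start. The consensus reads the same on both strands, so a match counts for both. Of 32851 windows, 2745 (8.36%) held a half-site, and 24 (0.0731%) held a pair separated by at most 13 bases. The members had 15 windows, of which 6 held a half-site, each from a different gene. Counted by gene, these were 6 of 10 members, and 9 of the 38 other p53 target genes with a window (23.7%), against 8.56% of the genes of the tables that had one. The 6 stretches are shown because p53 binds pairs of such half-sites, although only the Cdkn1a stretch held a pair. The 6 members with a half-site lay higher in shGldc than in NTC, Trp53 by a log2 ratio of only 0.03. Of those without one, Bbc3, Cdkn2b, and Cdkn2a lay higher and Cdkn1b lower. A link between half-sites and levels was not tested. Capitals mark the half-sites, and each stretch is printed along the strand of its gene.
Cdkn1a: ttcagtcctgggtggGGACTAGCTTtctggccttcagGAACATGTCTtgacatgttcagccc
Mdm2: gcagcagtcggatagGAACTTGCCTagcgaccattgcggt
Ccng1: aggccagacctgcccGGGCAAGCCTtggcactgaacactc
Bax: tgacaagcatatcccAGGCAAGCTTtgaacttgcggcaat
Sesn1: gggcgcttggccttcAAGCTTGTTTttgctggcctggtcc
Trp53: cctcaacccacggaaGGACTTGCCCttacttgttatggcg

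The Cdkn1a stretch lay at chr17:29090891-29090952 on the plus strand, and its 2 half-sites spanned bases 73 to 42 before the upstream annotated start. It was the only member window with a pair of exact matches. Half-sites with a mismatch were not searched for, so the capitals may not mark every half-site of a stretch. The Mdm2 stretch lay at chr10:117710920-117710959 on the minus strand, with the half-site starting 186 bases before the start. The Ccng1 stretch (chr11:40755447-40755486, minus strand) and the Bax stretch (chr7:45467075-45467114, minus strand) had theirs 185 and 201 bases before the start. The Sesn1 stretch (chr10:41887251-41887290, plus strand) belonged to the downstream of 2 annotated starts, with the half-site 173 bases before it. The Trp53 stretch (chr11:69580269-69580308, plus strand) had its half-site 75 bases before the start. No half-site was found in the windows of Bbc3, Cdkn1b, Cdkn2a, or Cdkn2b. A match describes these letters only, since p53 also binds in introns and farther upstream and no binding was measured here.

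The study also lists RT-qPCR primers for 3 of the inhibitors. The paper reports that Gldc knockdown raised senescence markers in V6.5 cells, measured by RT-qPCR and Western blot. The primers are shown because they mark which transcripts such an assay reads, whereas the deposited value covers a whole gene.
P21 forward: cctggtgatgtccgacctg
P21 reverse: ccatgagcgcatcgcaatc
P16 forward: gtgtgcatgacgtgcggg
P16 reverse: gcagttcgaatctgcaccgtag
P15 forward: ccctgccacccttaccaga
P15 reverse: gcagatacctcgcaatgtcac

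In the GENCODE M21 transcripts, the P21 pair matched 4 of the 5 annotated transcripts of Cdkn1a with a product of 103 bases, and the P15 pair matched the single transcript of Cdkn2b with a product of 170 bases. The P16 pair gave a product of 146 bases only on the Cdkn2a transcript that starts at base 89282192 of chromosome 4, the start of the Ink4a form. The forward P16 primer was absent from the other Cdkn2a transcript, which starts at base 89294653 and is the Arf form, although the reverse primer matched it. The Cdkn2a level given here therefore joins Ink4a and Arf, which encode unrelated proteins, and the primers read Ink4a alone.

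Marker genes fitted the labels, with traces of fibroblast genes in the pluripotent libraries. Gldc was at 74.7 FPKM in NTC and 2.07 in shGldc, so 2.77% of the NTC value was left. Its level was 0.123 FPKM in MEFs, 70.8 in iPSCs, and 59.7 in V6.5 cells. The 10 pluripotency markers summed to 3826 to 7173 FPKM in the 4 pluripotent libraries and to 3.38 in MEFs. The 10 fibroblast markers summed to 7235 FPKM in MEFs, 56.3 in V6.5 cells, 25.8 in iPSCs, 13.6 in NTC, and 9.59 in shGldc, with a median V6.5 level at 1.71% of the MEF level. Of the 8 that reached 1 FPKM in iPSCs or V6.5 cells, 6 were lower in iPSCs and 2 higher. These 2 were Twist1, at 2.77 FPKM in V6.5 cells and 11.8 in iPSCs, and Thy1, at 5.63 and 8.30. All 7 macrophage markers were above 1 FPKM in MEFs, and C1qa, C1qb, and C1qc were at 0 in iPSCs, NTC, and shGldc, whereas Cd68 was at 9.04 to 19.9 FPKM in all libraries. The 10 markers of differentiating cells summed to 18.3 FPKM in V6.5 cells, 19.0 in NTC, 27.7 in iPSCs, and 97.9 in shGldc. The near-equal sums of V6.5 cells and NTC hold opposite differences, with Cdx2 at 0.274 and 5.41 FPKM and Sox1 at 7.62 and 1.43. Fewer cells of a type and less RNA per cell cannot be told apart in such bulk libraries. Steps in the low values corresponded to 22100000 to 29000000 fragments per library. In NTC a step of double the size fitted equally well (11 values each), so its depth may be lower by a factor of 2, and counting intervals below allow for that in every library.

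Levels are given as FPKM, the fragments of a gene scaled to its length in kilobases and to 1000000 mapped fragments, which corrects for length and so lets genes be compared. Ratios are differences of log2(FPKM + 0.1), and a gene was counted as higher or lower at a ratio of at least 2-fold. Every member reached 1 FPKM in at least 1 library of each comparison, so all 10 are counted throughout.

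**Figure D1:**
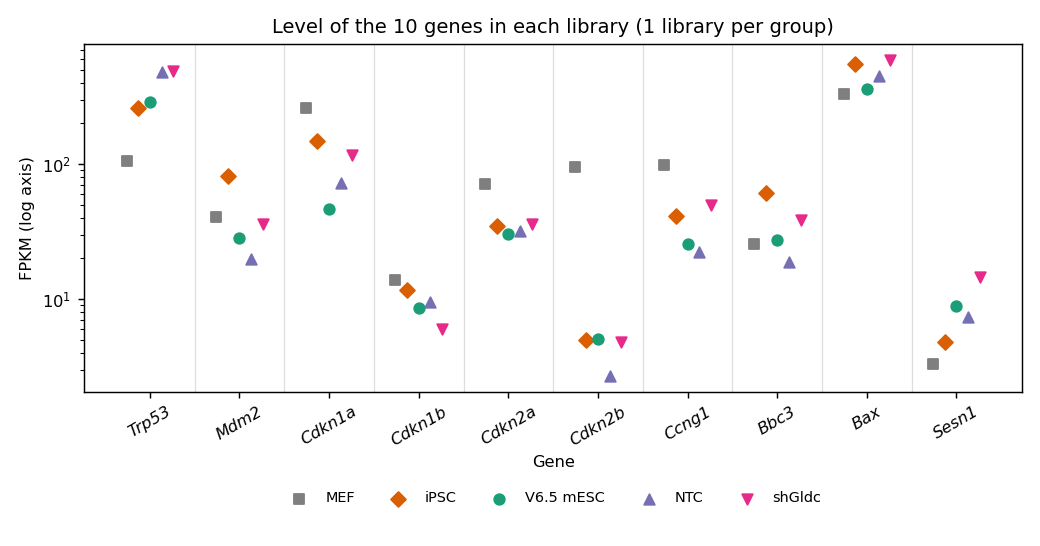
FPKM of the 10 genes on a log axis, with 1 point per library and libraries marked by colour and shape. Cdkn2b was at 94.4 FPKM in MEFs and at most 5.11 in the pluripotent libraries, whereas Trp53 and Sesn1 were lowest in MEFs.

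Relative to MEFs, the pluripotent libraries combined a higher level of Trp53 with lower levels of the Cdk inhibitors of the Ink4 locus and of Ccng1. In mESCs, 2 of 10 members were at least 2-fold higher (Trp53 and Sesn1), against 30.3% of all genes tested, and 4 were at least 2-fold lower (Cdkn1a, Cdkn2a, Cdkn2b, and Ccng1), against 23.3%. In iPSCs, 2 were higher (Trp53 and Bbc3), against 31.5% of all genes, and 3 were lower (Cdkn2a, Cdkn2b, and Ccng1), against 21.3%. The median log2 ratio over all genes was 0.25 for mESCs and 0.31 for iPSCs, and the median over the members was -0.59 and 0.15. The members' median in iPSCs turned negative under each of the 3 other scalings and with a minimum of 5 FPKM. Both comparisons use the same MEF library. Bbc3 and Bax were near the MEF level in mESCs, at log2 ratios of 0.10 and 0.11, and each of the 3 other scalings put them below it. In iPSCs, Bbc3 and Trp53 were no longer called higher when centred on all genes (0.95 and 0.99), while Cdkn1a passed to lower (-1.12).

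The 2 pluripotent lines without a hairpin also differed from each other, with Cdkn1a, Mdm2, and Bbc3 higher in iPSCs than in mESCs. These 3 of 10 compare with 10.1% of all genes tested, and 0 members were at least 2-fold lower in iPSCs, against 7.44% of all genes. In the knockdown, Ccng1 and Bbc3 were at least 2-fold higher in shGldc than in NTC, 2 of 10 against 8.97% of all genes, and 0 members were at least 2-fold lower, against 7.68%. The members had a median log2 ratio of 0.74, against 0.04 over all genes, and 9 of the 10 lay above 0, or 8 after rescaling or centring on all genes, which put Trp53 just below 0. Sesn1 fell just short of 2-fold, at a ratio of 1.99, and Cdkn1b had the lowest log2 ratio, -0.67.

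**Figure D2:**
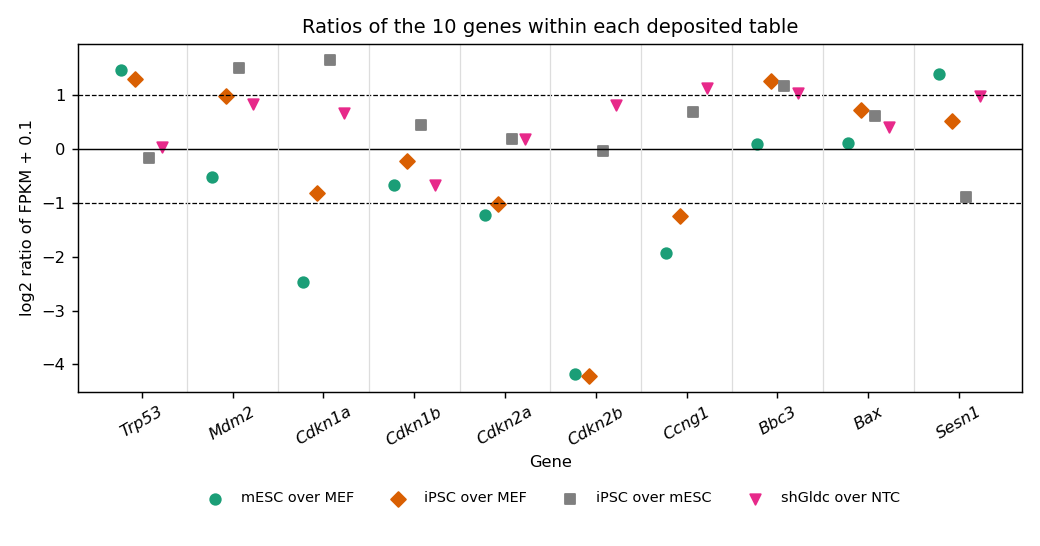
Log2 ratios of the 10 genes in the 4 comparisons made within a deposited table, with dashed lines at 2-fold. Cdkn2b had the lowest ratios to MEFs (-4.18 in mESCs and -4.21 in iPSCs), and 9 of the 10 genes lay above 0 in shGldc over NTC, where Trp53 at 0.03 is put just below 0 by rescaling.

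The hairpin libraries were also set against untreated V6.5 cells, a comparison that crosses the 2 separately made tables. NTC differed from V6.5 cells by less than 2-fold for all 10 members, with 0 higher against 4.99% of all genes and 0 lower against 10.3%. When centred on the reference genes, Trp53 and Cdkn1a were called higher (1.08 and 1.01). In shGldc, only Cdkn1a was at least 2-fold higher than in V6.5 cells, 1 of 10 against 9.89% of all genes, and 0 were at least 2-fold lower, against 13.9%. The same centring gave 5 members higher, with Trp53, Ccng1, Bax, and Sesn1 added. The NTC library enters both its own comparison with V6.5 cells and that of shGldc over NTC. Mdm2 was at 0.694 of the V6.5 level in NTC and at 1.25 in shGldc. Bbc3 was at 0.688 and 1.42, Ccng1 at 0.874 and 1.93, Sesn1 at 0.827 and 1.64, and Cdkn2b at 0.530 and 0.949. The median log2 ratio over all genes was -0.06 for NTC and -0.02 for shGldc.

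Trp53 (chr11:69580359-69591873, plus strand, build mm10) encodes p53 and has 6 annotated transcripts. Its level was 104.7 FPKM in MEFs, 259.5 in iPSCs, 289.5 in V6.5 cells, 475.8 in NTC, and 487.0 in shGldc. All pluripotent libraries were above MEFs, by 2.76-fold in mESCs and 2.48-fold in iPSCs. NTC and shGldc hardly differed, with a ratio of 1.02, and counting error alone put that ratio between 0.998 and 1.05 (95% interval). Both hairpin libraries lay above untreated V6.5 cells across the tables, by 1.64-fold and 1.68-fold. Its transcripts shared 3.95% of their 50-nt stretches with other genes, most often with the pseudogene Trp53-ps. The level of p53 protein was not measured in these files.

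Mdm2 (chr10:117688875-117710758, minus strand), the ubiquitin ligase that degrades p53 and is itself a p53 target, had a different order. Its level was 40.8 FPKM in MEFs, 81.3 in iPSCs, 28.6 in V6.5 cells, 19.8 in NTC, and 35.7 in shGldc. The iPSC library was highest and NTC lowest, a 4.10-fold range. Mdm2 was 1.99-fold higher in iPSCs than in MEFs but at 0.700 of the MEF level in mESCs, and the iPSC level was 2.84-fold that of mESCs. shGldc was 1.80-fold above NTC, with a counting interval of 1.66 to 1.95.

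Its relative Mdm4, which inhibits p53 without degrading it, went the other way in the knockdown. Mdm4 was at 4.58 FPKM in MEFs, 13.9 in iPSCs, 8.72 in V6.5 cells, 8.51 in NTC, and 4.44 in shGldc, a log2 ratio of -0.93 over NTC. Ppm1d, a phosphatase that dampens p53 signalling and is a p53 target, was at 11.3 FPKM in NTC and 20.1 in shGldc. Of the 27 genes listed as regulators of p53, 26 passed the filter in shGldc over NTC and 0 reached 2-fold in either direction, against 8.97% of all genes higher and 7.68% lower, with a median log2 ratio of 0.01. The highest was Ppm1d, at 0.82, and the lowest was Mdm4. In mESCs over MEFs, 9 of 26 were higher and 1 lower, against 30.3% and 23.3% of all genes, from Trp73, at 0 in MEFs, to Crebbp at -1.31. In iPSCs over MEFs, 13 of 26 were higher and 0 lower, against 31.5% and 21.3%, with the same genes at the ends (Crebbp at -0.89). Each of the 3 other scalings gave 2 lower in both comparisons and 9 higher in iPSCs, and the lower gene in mESCs was not called with a pseudocount of 1 or a minimum of 5 FPKM. Trp73, a p53 relative, was listed at 0 in MEFs and at 0.917 to 1.53 FPKM elsewhere, and Trp63 did not exceed 0.017 FPKM in any library.

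Cdkn1a (chr17:29090976-29100727, plus strand) encodes p21, the Cip/Kip inhibitor through which p53 arrests the cell cycle. Its level was 258.3 FPKM in MEFs, 147.3 in iPSCs, 46.6 in V6.5 cells, 72.9 in NTC, and 116.0 in shGldc. MEFs were highest and V6.5 cells lowest, a 5.54-fold range. iPSCs stood 3.16-fold above mESCs, with a counting interval of 2.95 to 3.39, the largest ratio of the 10 members in that comparison. shGldc was 1.59-fold above NTC (counting interval 1.5 to 1.68) and 2.49-fold above V6.5 cells. Cdkn1a shared 8.49% of its 50-nt stretches with other genes, mostly with AC167363.2, a transcript on the opposite strand that has 273 exonic bases in common with it and is not listed in the tables. The strand setting of the authors' processing is not stated, so reads of both could not be told apart there.

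Cdkn1b (chr6:134920401-134925513, plus strand) encodes p27, a Cip/Kip inhibitor controlled largely by protein turnover. It was at 13.7 FPKM in MEFs, 11.8 in iPSCs, 8.65 in V6.5 cells, 9.59 in NTC, and 6.0 in shGldc. It stayed within a 2.29-fold range, the smallest among the inhibitor genes of the 10, with MEFs highest and shGldc lowest. The shGldc level was 0.626 of the NTC level, with a counting interval of 0.526 to 0.744, opposite in direction to Cdkn1a. Neither Cdkn1b nor the Ink4 members shared any 50-nt stretch with another gene.

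Cdkn2a (chr4:89274471-89294653, minus strand) gives rise to Ink4a, an inhibitor of Cdk4 and Cdk6, and Arf, which restrains Mdm2. Its joint level was 71.3 FPKM in MEFs, 35.0 in iPSCs, 30.6 in V6.5 cells, 31.7 in NTC, and 36.0 in shGldc. MEFs were highest, and the 4 pluripotent libraries lay between 30.6 and 36.0 FPKM, in a 2.33-fold range over all libraries. The ratio of shGldc over NTC was 1.13, and a counting interval of 0.990 to 1.3 includes 1.

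The neighbouring gene Cdkn2b (chr4:89306299-89311039, minus strand) encodes p15, the other Ink4 inhibitor of the locus. Its level was 94.4 FPKM in MEFs, 5.0 in iPSCs, 5.11 in V6.5 cells, 2.71 in NTC, and 4.85 in shGldc. MEFs exceeded NTC 34.9-fold, the widest range of the 10 members, while iPSCs and V6.5 cells did not differ beyond counting error (ratio 0.980, interval 0.721 to 1.33). shGldc was 1.79-fold above NTC, with a counting interval of 1.29 to 2.50 on about 194 and 109 fragments at the larger depth estimate. With 1.71% of the MEF level subtracted, the median share of the fibroblast markers, Cdkn2b in V6.5 cells would be at 3.49 FPKM in place of 5.11. The summed markers gave a lower share, 0.778%, which would take away less.

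**Figure D3:**
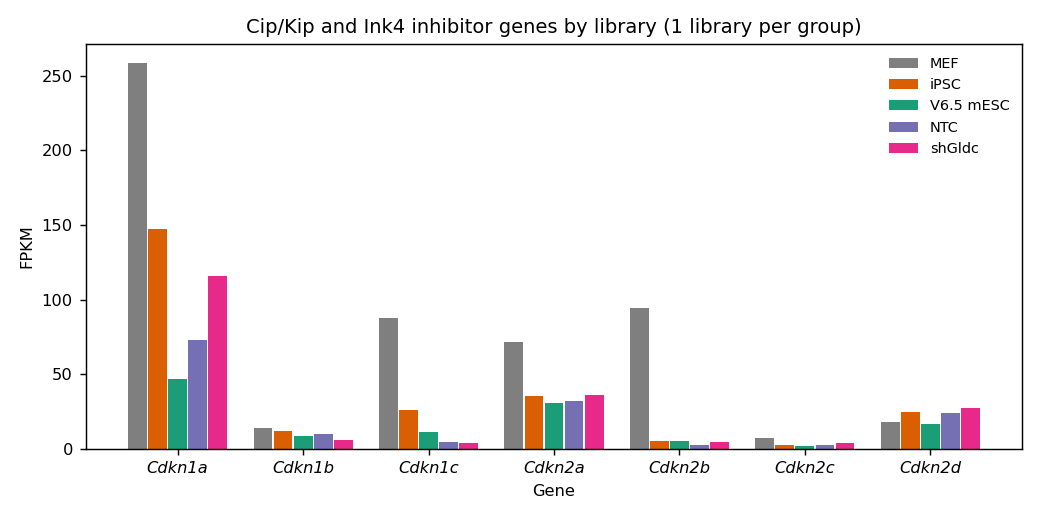
FPKM of the 7 Cip/Kip and Ink4 inhibitor genes in each library, 1 bar per library. Cdkn1a was the highest inhibitor gene in every library, from 46.6 FPKM in V6.5 cells to 258.3 in MEFs.

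The remaining inhibitor genes were Cdkn1c, Cdkn2c, and Cdkn2d, which encode p57, p18, and p19Ink4d. Cdkn1c was at 87.9 FPKM in MEFs, 26.2 in iPSCs, 11.4 in V6.5 cells, 4.65 in NTC, and 3.95 in shGldc. It resembled Cdkn2b in being far higher in MEFs, and unlike Cdkn2b it was no higher in shGldc than in NTC (log2 ratio -0.23). Cdkn2c was at 7.54 FPKM in MEFs and 2.13 to 3.58 elsewhere, and Cdkn2d at 16.8 to 27.4 in all libraries. In mESCs over MEFs, 2 of the 3 were at least 2-fold lower and 0 higher, against 23.3% and 30.3% of all genes, and the same counts held for iPSCs over MEFs, against 21.3% and 31.5%. In shGldc over NTC, 0 of the 3 passed 2-fold in either direction, against 8.97% of all genes higher and 7.68% lower.

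Bbc3 (chr7:16308393-16318205, plus strand) encodes Puma, a BH3-only protein that carries the apoptotic arm of p53. Its level was 25.4 FPKM in MEFs, 61.3 in iPSCs, 27.2 in V6.5 cells, 18.7 in NTC, and 38.5 in shGldc. It was 2.26-fold higher in iPSCs than in mESCs and 2.06-fold higher in shGldc than in NTC, with counting intervals of 2.05 to 2.49 and 1.85 to 2.29. Bbc3 was the 1 member at least 2-fold higher in both of these comparisons, which share no library. Among all 11481 genes that passed both filters, 2.17% were at least 2-fold higher in both.

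Bax (chr7:45461697-45466898, minus strand) encodes the pore-forming effector that Puma and its relatives activate. It was among the most abundant members, at 331.6 FPKM in MEFs, 545.8 in iPSCs, 357.8 in V6.5 cells, 445.1 in NTC, and 591.0 in shGldc. The whole range was 1.78-fold, the narrowest of the 10, and shGldc was 1.33-fold above NTC. Of its 50-nt stretches 8.51% were shared with Gm45808, an overlapping gene on the same strand that is not listed in the tables.

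Among 14 other genes of the Bcl2 family, 11 passed the filter in shGldc over NTC, of which 2 were at least 2-fold higher and 0 lower, against 8.97% and 7.68% of all genes. The count higher was 1 under each of the 3 other scalings and 0 with a pseudocount of 1, and 1 was lower after rescaling or centring on all genes. The highest was the BH3-only gene Bik, at 3.11 FPKM in NTC and 6.63 in shGldc, and the lowest was Bmf, another BH3-only gene, at 5.25 and 2.64. The p53 target Pmaip1, which encodes Noxa, did not follow Bbc3 in the knockdown, with 19.6 FPKM in NTC and 14.8 in shGldc. Bak1, the other pore-forming effector, was at 55.0 and 59.0 FPKM, and the antiapoptotic gene Mcl1 at 118.3 and 162.2. Bcl2 was at 1.23 FPKM in MEFs and at most 0.117 elsewhere. In mESCs over MEFs, 4 of 12 were higher and 3 lower, against 30.3% and 23.3% of all genes, from Bmf at 2.93 to Bcl2 at -3.23. In iPSCs over MEFs, 6 of 13 were higher and 1 lower, against 31.5% and 21.3%, from Hrk to Bcl2 at -2.62, and the count lower ranged from 0 to 4 over the alternatives. Hrk, which encodes Harakiri, was listed at 0 in MEFs and was at 6.98 FPKM in iPSCs, 0.215 in V6.5 cells, 0.266 in NTC, and 0.311 in shGldc, so it was near absent outside the iPSC library.

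Ccng1 (chr11:40748552-40755311, minus strand) encodes cyclin G1, a p53 target that recruits a phosphatase to Mdm2. Its level was 97.5 FPKM in MEFs, 41.3 in iPSCs, 25.7 in V6.5 cells, 22.4 in NTC, and 49.4 in shGldc. It had the largest shGldc to NTC ratio of the members, 2.20, with a counting interval of 2.06 to 2.36. mESCs were at 0.263 and iPSCs at 0.424 of the MEF level.

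Sesn1 (chr10:41809935-41908424, plus strand) encodes sestrin 1, a p53 target that limits oxidative stress and mTORC1 signalling. Its level was 3.32 FPKM in MEFs, 4.78 in iPSCs, 8.93 in V6.5 cells, 7.39 in NTC, and 14.7 in shGldc. It was the one p53 target among the members with a lower level in iPSCs than in mESCs, at 0.535 (counting interval 0.436 to 0.655). In shGldc it was 1.99-fold above NTC (counting interval 1.72 to 2.30).

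Among the relatives, Sesn2 was at 49.5 FPKM in MEFs, 110.9 in iPSCs, 43.1 in V6.5 cells, 53.5 in NTC, and 91.4 in shGldc, so it was higher in iPSCs than in mESCs where Sesn1 was lower. Sesn3 stayed between 3.54 and 6.13 FPKM. Ccng2 was at 8.13 FPKM in MEFs, 6.99 in iPSCs, 3.98 in V6.5 cells, 1.97 in NTC, and 3.82 in shGldc, and Ccni stayed between 43.1 and 73.3. Of these 4 genes, 0 passed 2-fold in either direction in shGldc over NTC, against 8.97% of all genes higher and 7.68% lower. Ccng2 was lower in mESCs over MEFs, 1 of 4 against 23.3%, but not with a pseudocount of 1. Sesn2 was higher in iPSCs over MEFs, 1 of 4 against 31.5%, but under none of the 3 other scalings.

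The wider set of 47 p53 target genes, none of them a member, mostly lay higher in the knockdown. In shGldc over NTC, 44 passed the filter. Of these, 11 (25%) were called higher, against 8.97% of all genes, and 0 were called lower, against 7.68%. The median log2 ratio was 0.52, and 36 of the 44 lay above 0. Over all genes, the median was 0.04 and the quartiles were -0.32 and 0.40. The highest was Phlda3, a repressor of Akt signalling, at 117.8 FPKM in NTC and 380.3 in shGldc, and the lowest was Fdxr, ferredoxin reductase, at 32.2 and 17.4. In iPSCs over mESCs, 12 of 44 (27.3%) were higher, against 10.1% of all genes, and 2 (4.55%) lower, against 7.44%, with a median of 0.60. In NTC over V6.5 cells, 1 of 44 was higher and 5 were lower, against 4.99% and 10.3% of all genes, with a median of -0.20. In shGldc over V6.5 cells, 6 were higher and 4 lower, against 9.89% and 13.9%, with a median of 0.39. Centring on the reference genes gave 3 and 3 in NTC, 11 and 2 in shGldc, and 20 and 1 in iPSCs over mESCs. This centring also turned the NTC median to 0.17, and the count higher in NTC ranged from 0 to 3 over the alternatives.

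**Figure D4:**
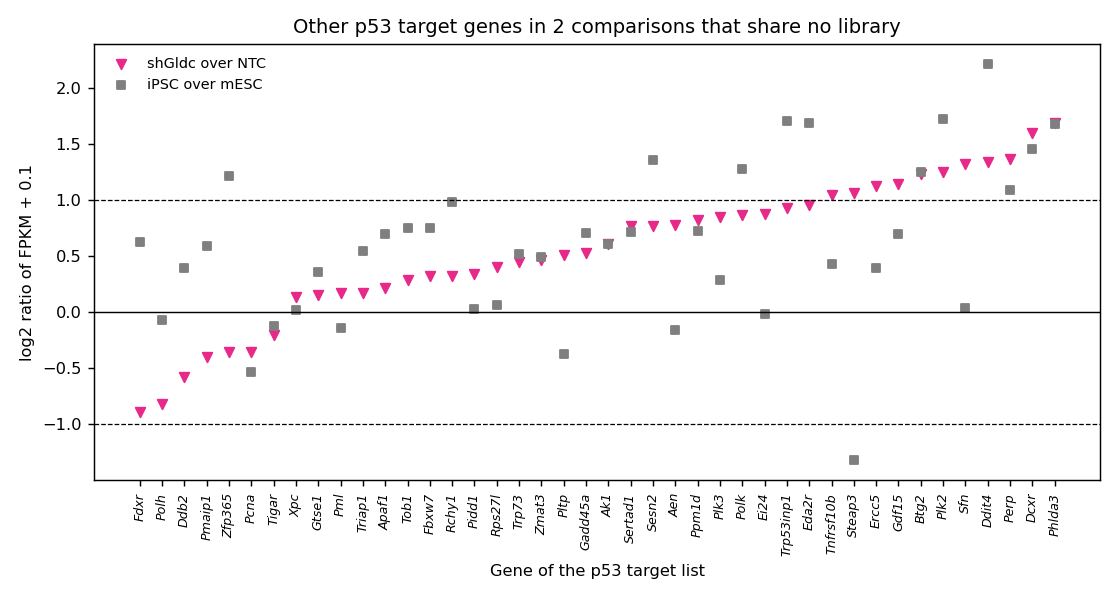
Log2 ratios of 42 of the 43 p53 target genes that passed the filter in both comparisons, sorted by shGldc over NTC, with dashed lines at 2-fold. The points of shGldc over NTC run from -0.89 (Fdxr) to 1.69 (Phlda3), and 6 genes lie at or above 2-fold in both comparisons.

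Of the 43 target genes that passed both filters, 6 were at least 2-fold higher in both shGldc over NTC and iPSCs over mESCs. They made up 54.5% of the 11 calls in the knockdown and 50% of the 12 in iPSCs. Over all genes, the corresponding shares were 29.1% and 25.7%. The 6 genes, named after their values were seen, were Btg2, Dcxr, Ddit4, Perp, Phlda3, and Plk2. Btg2 is an antiproliferative gene, Ddit4 encodes an mTORC1 inhibitor, and Perp encodes a desmosomal protein linked to apoptosis. Ddit4 was at 58.1 FPKM in V6.5 cells and 270.5 in iPSCs, and at 38.7 in NTC and 98 in shGldc. Perp was at 11.8 FPKM in V6.5 cells and 25.4 in iPSCs, and at 5.95 in NTC and 15.5 in shGldc. Cell state markers also differed in both comparisons. Of the 10 markers of differentiating cells, 8 passed the filter in shGldc over NTC, of which 5 were called higher and 0 lower, against 8.97% and 7.68% of all genes, and 2 lay below 0, from Hoxb1, listed at 0 in NTC and at 9.62 FPKM in shGldc, to Sox1 at a log2 ratio of -0.30. Of the 10 pluripotency markers, 9 lay below 0, with a median log2 ratio of -0.57. Fgf4, at 59.9 FPKM in NTC and 18 in shGldc, was the 1 called lower, against 7.68% of all genes. In iPSCs over mESCs, 7 markers of differentiating cells passed, of which 4 were called higher (Gata4, Gata6, Sox17, and Cdx2) and 2 lower (Sox1 and Pax6), against 10.1% and 7.44% of all genes. The pluripotency markers had a median of -0.36 there and 0 were called. Of 8 fibroblast markers that passed, 1 was called higher and 5 lower. Both lists compare with the same 10.1% and 7.44% of all genes. In shGldc over NTC, 5 fibroblast markers passed. Of these, 1 was called higher (Pdgfra) and 2 lower (Col1a1 and Thy1), against 8.97% and 7.68% of all genes. Against V6.5 cells, the differentiating cell markers called higher and lower were 3 and 2 of 7 in NTC and 7 and 2 of 9 in shGldc. Of the 10 pluripotency markers, 1 was lower in NTC and 4 in shGldc. Of the fibroblast markers, 5 of 8 were lower in NTC and 6 of 9 in shGldc, with 0 of either list higher. Over all genes, 4.99% were higher and 10.3% lower in NTC, and 9.89% and 13.9% in shGldc. The part of these markers in the results was not tested.

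Against MEFs, the target genes lay on both sides. In mESCs, 15 of 46 were at least 2-fold higher (32.6%) and 9 lower (19.6%), shares near those of all genes (30.3% and 23.3%). The median log2 ratio of 0.07 turned negative under each of the 3 other scalings (-0.13 to -0.18). In iPSCs, 21 of 46 were higher (45.7%) and 5 lower (10.9%), against 31.5% and 21.3% of all genes, with a median of 0.81. With a minimum of 5 FPKM, 3 were lower. Sfn, which encodes the cell cycle regulator 14-3-3 sigma, was highest in both, at 1.40 FPKM in MEFs, 131.5 in mESCs, and 135.1 in iPSCs.

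The Cdks and cyclins that the inhibitors bind were compared next. Among these 10, 5 were at least 2-fold higher and 2 lower in mESCs over MEFs, against 30.3% and 23.3% of all genes, and each of the 3 other scalings left 3 higher. In iPSCs over MEFs, 4 were higher and 2 lower, against 31.5% and 21.3%, and 0 were higher after rescaling or centring on all genes. Ccnd2, cyclin D2, was lowest, at 96.5 FPKM in MEFs, 1.57 in V6.5 cells, and 1.20 in iPSCs. Ccne1, cyclin E1, was at 25.2 FPKM in MEFs, 59.1 in iPSCs, 179.7 in V6.5 cells, 193.1 in NTC, and 113.3 in shGldc. It was thus lower in iPSCs than in V6.5 cells and in shGldc than in NTC. Cdk4 was at 236.6 to 530.3 FPKM in all libraries, and Cdk6 at 2.31 to 9.96. Cdk1, Cdk2, Ccna2, and Ccnd3 were in shGldc at 0.817 to 0.985 of their NTC level. Ccnd1 was at 43.8 FPKM in NTC and 26.1 in shGldc, and Ccne2 at 0.710 and 1.28. In shGldc over NTC, 9 of the 10 passed the filter and 0 were at least 2-fold different in either direction, against 8.97% of all genes higher and 7.68% lower.

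Cell cycle genes repressed through the DREAM complex, the Rb-family complex by which p21 lowers their transcription, were higher in pluripotent cells. In mESCs over MEFs, 20 of 22 were at least 2-fold higher, against 30.3% of all genes, and 0 lower, against 23.3%, from Mybl2 at 4.87 to Foxm1 at 0.10. In iPSCs over MEFs, 18 of 22 were higher, against 31.5%, and 0 lower, against 21.3%, from Mybl2 at 4.94 to Foxm1 at -0.08. In shGldc over NTC, 0 were higher and 1 was lower, against 8.97% and 7.68% of all genes, with a median log2 ratio of -0.08. The lower gene was Mybl2, a transcription factor of the cell cycle, at 368.9 FPKM in NTC and 145.1 in shGldc, and the highest was Cdc25c at a log2 ratio of 0.23. Of 15 Rb-family and E2F genes, 1 was at least 2-fold higher in shGldc (Rb1, 0.931 FPKM in NTC and 2.03 in shGldc) and 1 lower (E2f4, 168.7 and 80.3), shares near the 8.97% and 7.68% of all genes. Rb1 was not called with a pseudocount of 1 or a minimum of 5 FPKM. In mESCs over MEFs 6 of these 15 were higher and 1 lower, against 30.3% and 23.3% of all genes. In iPSCs over MEFs 7 were higher and 1 lower, against 31.5% and 21.3%, and 4 were higher when centred on all genes, with E2f2 highest (3.26 and 3.10) and Rbl2 lowest (-1.16 and -1.15, neither called with a pseudocount of 1 or a minimum of 5 FPKM).

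Genes with the profile most like each member over the 5 libraries were found by the root mean square distance of mean-centred log2(FPKM + 0.1) values, among genes that reached 5 FPKM in a library. The nearest to Trp53 were Ftsj2 (distance 0.03) and Atp5g1 (0.05). Cdkn2a was nearest to Crk (0.04) and Errfi1 (0.06), Bax to Lemd3 (0.04) and Spsb3 (0.05), and Ccng1 to Pfn2 (0.05) and Cdo1 (0.12). Cdkn1b was nearest to Stam and Trex1 (0.10 each), Sesn1 to 4930404N11Rik (0.12) and Bend3 (0.13), and Bbc3 to Aebp2 (0.13) and Zdhhc24 (0.15). Cdkn1a, Cdkn2b, and Mdm2 had no neighbour nearer than 0.155, 0.176, and 0.180, namely Mmgt2, Gpx8, and Arf2. Their next nearest were Tmco1 (0.18), Camk2d (0.18), and Tpt1 (0.19). Members were left out of the search, and a likeness over 5 libraries is a description only.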

How the data were processed

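RNA-seq of 5 mouse libraries, 1 per group, was analysed from 2 tables of gene-level FPKM values that the authors deposited. Per the labels and methods, RNA was extracted with TRIzol, libraries were made with a NEBNext Ultra kit, and reads were mapped with TopHat2 2.1.0 and assembled with StringTie 1.3.4d, with SAMtools 1.7 and Ballgown. The text names mm10, and the processing notes also name mm9. The annotation, strand setting, and filters are not given in the sources used here. The knockdown column bears a hairpin name that the labels do not describe.

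Ratios were log2(FPKM + 0.1) differences, kept where a gene reached 1 FPKM in a library of the comparison and called at 2-fold. This scale understates changes of low genes. Fragments were estimated from the steps of FPKM times length in single-transcript genes, and 95% intervals allow for a depth lower by a factor of 2 and cover counting error only. The step was weakest in NTC, where 11 of 218 low values lay on it against a median of 1 for other sizes. Positions came from GENCODE M21 (mm10), and promoter sequence from RefSeq (GRCm38.p6), in which 10 of 10 members had a window. Gene lists, members, and named genes were chosen with earlier results of these data known. Named genes were the members, the ends of each list in 3 comparisons (mESC over MEF, iPSC over MEF, and shGldc over NTC), lists of up to 10 genes, relatives of the members, and the 2 nearest profiles per member. Some genes that this rule names are not reported here. Alternatives were pseudocounts of 1 and 0.01, a minimum of 5 FPKM or none, rescaling to the same FPKM sum, centring on the median of all or of reference genes, and, chosen after seeing the data, V6.5 values less a MEF-derived share. Python 3.11.15, numpy 2.4.6, pandas 2.3.3, and matplotlib 3.10.9 were used.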

Additional observations from a re-analysis of the deposited data

Results flagged for a closer look

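Mdm2 stood on opposite sides of the MEF level in the 2 pluripotent lines. Its log2 ratio over MEFs was -0.51 in mESCs and 0.99 in iPSCs, and it was flagged because the directions differ. Both ratios use the same MEF library, each line is 1 library, and the difference was not tested.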

How the results depend on the processing

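Each alternative was applied to the counts of members past 2-fold in 6 comparisons, except that the subtraction of a MEF-derived share was applied in the 4 that include V6.5 cells. Both other pseudocounts and both other filters left these counts within 1.5 times. The number of members higher in iPSCs over MEFs was 1 after rescaling to the same FPKM sum and 0 once centred on all genes, against 2. Centring on the reference genes, whose median shifted the log2 ratios by 0.31 to 0.36 in the comparisons with V6.5 cells as denominator, gave 2 members higher in NTC over mESCs, against 0, and 5 in shGldc over mESCs, against 1. With the MEF-derived share taken from V6.5 cells, 2 were higher in shGldc over mESCs. Cdkn1a in iPSCs over MEFs passed to lower under each of the 3 other scalings (-1.02 to -1.12, against -0.81). No ratio of a single member moved by more than 0.59, the robust SD of NTC over V6.5 cells, under any alternative. The member counts in shGldc over NTC were the same under all alternatives run. Of 920 list counts under an alternative, 96 moved by more than 1.5 times, and of 506 list medians 2 moved by over 0.59. Without replicates, the spread between cultures is unknown for every value.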

Other observations

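Of 19 regulators of the Ink4/Arf locus, 8 were at least 2-fold higher and 7 lower in mESCs over MEFs, against 30.3% and 23.3% of all genes. In iPSCs over MEFs, 9 were higher and 4 lower, against 31.5% and 21.3%, and 5 were higher after rescaling or centring on all genes. Cbx7, a Polycomb component that represses the locus, was highest, at 0.572 FPKM in MEFs, 44.9 in V6.5 cells, and 66.8 in iPSCs. Hmga2 was lowest, at 78.8, 2.43, and 2.39 FPKM. In shGldc over NTC, 5 were higher and 2 lower, against 8.97% and 7.68% of all genes, and the count higher was 1 with a pseudocount of 1, 2 with a minimum of 5 FPKM, and 3 after rescaling. The range ran from Tbx2, a repressor of the locus, at 0.108 FPKM in NTC and 1.01 in shGldc, to Id1 at 67.0 and 25.6.

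Of 12 genes that control turnover of p21 and p27, 0 were at least 2-fold higher and 0 lower in shGldc over NTC, against the same shares, from Cul1 at 0.71 to Rnf123 at -0.29. In mESCs over MEFs 6 were higher, against 30.3% of all genes, and 0 lower, against 23.3%, from Dtl at 2.02 to Cul4a at -0.55. The iPSC library had 4 higher and 0 lower than MEFs, against 31.5% and 21.3%, from Cdc20 at 2.22 to Cul4a at -0.73, with 1 lower after rescaling or centring on all genes. Among 14 reference genes, 0 passed 2-fold in shGldc over NTC, against 8.97% of all genes higher and 7.68% lower, from Gapdh at 0.46 to Pgk1 at -0.74. Against MEFs, 2 were higher and 2 lower in mESCs, against 30.3% and 23.3%, and 2 and 3 in iPSCs, against 31.5% and 21.3%, with Gapdh highest (2.01 and 1.42) and B2m lowest (-3.74 and -4.15).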
